A study of Homo sapiens with 12 samples.

Results

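Signals of 10 genes that make lipoproteins, 9 apolipoproteins (APOA1, APOA2, APOA4, APOB, APOC1, APOC3, APOE, APOF and APOM) and MTTP, were compared across 12 bead arrays of Caco-2 cells, an established human colorectal cancer line. The genes were taken as a list of symbols. Each had 1 probe among the 47314 probes of the array, and a probe counted as detected on an array where its detection p-value was under 0.05. All 10 passed the filter of detection on 3 or more arrays, so all 10 are among the 12566 genes tested. Probes of 9 members were detected on all 12 arrays, and the MTTP probe on 8.

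The arrays fall into 4 groups of 3. A line labelled for inducible shRNA knockdown of LRH-1 (a nuclear receptor, gene NR5A2) was given 5 µg/ml doxycycline and collected 96 hours later, or carried no induction label. A control line was handled in the same 2 ways. The labels call the control native in the title and a non-silencing vector control in the genotype, and the design text mentions separate hairpin sequences without saying which was on the arrays. They do not say whether replicates were separate cultures, so p-values cover only the spread between these arrays, which may be technical.

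Apolipoproteins are the protein coat of the particles that carry cholesterol and triglyceride in blood. One APOB molecule forms the backbone of each chylomicron or very-low-density particle, and MTTP loads lipid onto it in the endoplasmic reticulum. The smaller, exchangeable apolipoproteins move between particles, where they activate or inhibit lipases, solubilise lipid or bind receptors. In the body these genes are used mainly by hepatocytes and, for some, by the absorptive cells of the small intestine. Caco-2 cells have long served as a model of intestinal lipoprotein secretion, although they come from colon.

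Arrays had median intensities of 251.2 to 386.2 units and detected 41.19% to 44.71% of their probes. Epithelial markers were present, with 10 of 11 detected on 3 or more arrays (all but CDX1), as were 9 of 10 hepatocyte markers (all but CYP2E1). Of 6 immune markers 3 were detected on all 12 arrays (CD68, CD14 and LYZ, with group means of 9.95 to 11.99 on the log2 scale), and PTPRC and CD3E were among those not detected on 3. Of 3 endothelial markers PECAM1 was detected on all 12 arrays (8.69 to 9.09) and VWF and CDH5 were not detected on 3. NR5A2, the hairpin's target, was not lower in induced than in uninduced shRNA-labelled arrays. Its mean log2 signals (± SD, n = 3) were 10.17 ± 0.07 in uninduced and 10.67 ± 0.14 in induced shRNA-labelled arrays, next to 10.16 ± 0.09 and 11.05 ± 0.11 in uninduced and induced control arrays. It rose in both lines (adjusted p = 0.00995 and 0.000384). Between the induced lines NR5A2 was lower in the shRNA-labelled one, which passed by limma, while the difference of the rises did not. Differences are therefore given between arrays as labelled, with none tied to loss of LRH-1. Arrays given doxycycline are called induced and the others uninduced. In RNA from whole cultures, fewer cells using a gene and less of its RNA per cell cannot be told apart.

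In the shRNA-labelled line, doxycycline was accompanied by lower APOC3, APOA4 and APOF and higher APOM. In the control line only APOF passed, and it went up. Between the lines, APOA4 was lower and MTTP higher in the shRNA-labelled line, with and without doxycycline, APOM was lower there without doxycycline, and APOC3, APOF and APOC1 were lower there with it. APOA1, APOA2, APOE and APOB passed in none of the 5 comparisons.

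Of the 10 members, 4 passed an adjusted p of 0.05 for doxycycline in the shRNA-labelled line, 1 higher and 3 lower, against 11.5% of all genes tested. For doxycycline in the control line 1 member passed, against 16% of all genes. Without doxycycline 3 members differed between the lines, 1 higher and 2 lower in the shRNA-labelled line, against 16.3% of all genes. With doxycycline 5 differed, 1 higher and 4 lower, against 22.6%. One member, APOF, passed for the difference between the lines' responses to doxycycline, against 0.844% of all genes. Median scaling in place of quantile normalization moved the split to 0 higher and 4 lower for doxycycline in the shRNA-labelled line, to 0 and 0 in the control line, and to 1 higher and 1 lower for the lines without doxycycline. The members' median log2 difference over these comparisons was -0.12 and 0.10 for doxycycline in the shRNA-labelled and control lines, -0.07 and -0.25 between the lines without and with it, and -0.32 for the difference of responses, where the medians of all genes lay between -0.02 and 0.01. Every comparison of 3 against 3 arrays has 0.1 as the smallest p that an exact two-sided permutation test can give, so the calls rest on the model shared across genes.

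Probes of the members differed widely in brightness. Intensities of APOA1 lay between 65.5% and 80.83% of the brightest probe on the same array, those of APOA2 between 62% and 89.43%, and those of APOE between 63.97% and 75.47%. All 3 stayed above 50% on all 12 arrays. Among all genes tested, 298 had such bright probes, and of these 2 (0.671%) were called for doxycycline in the shRNA-labelled line, against 11.5% of all genes. Their largest difference in that comparison was 0.34 on the log2 scale, and their differences had an SD of 0.09, against 0.37 over all genes. With doxycycline, 3 of the 298 (1.01%) differed between the lines. These genes were picked for staying bright on all 12 arrays, which leaves out genes that fall far in any group. Few calls and small differences follow partly from that choice, so the shares cannot show how far brightness hides change. APOB reached 50% on 8 arrays, APOC3 on 6 and APOM on 4, while APOC1 peaked at 48.73% and APOA4, APOF and MTTP stayed at or below 5.327%.

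**Figure D1:**
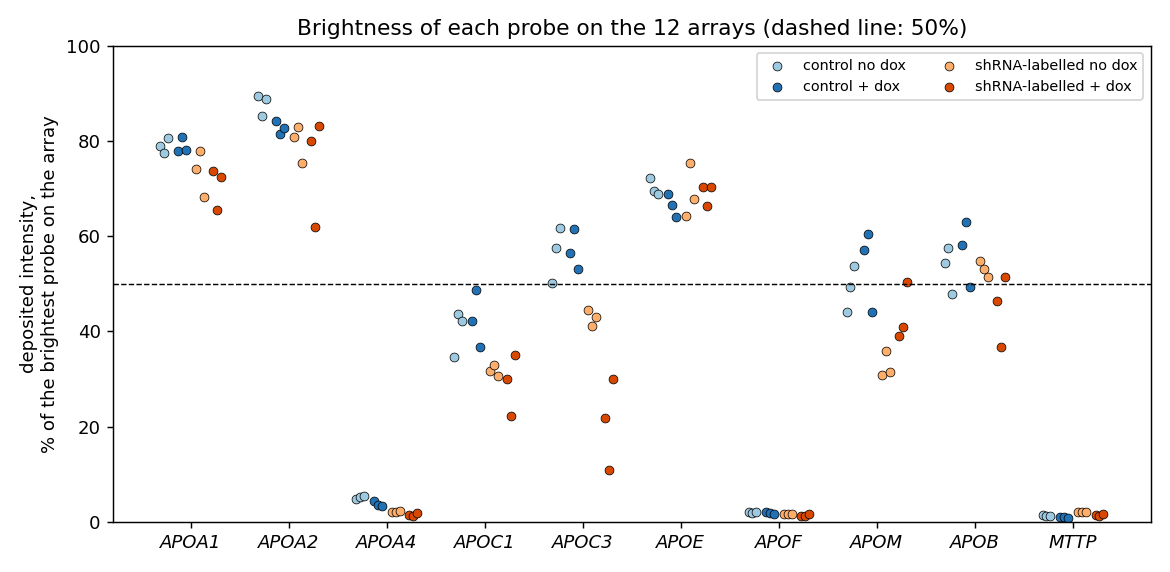
Deposited intensity of each probe as a percentage of the brightest probe on its array (y axis, linear), 1 point for each of the 12 arrays, coloured by group. APOA1, APOA2 and APOE lie above the dashed 50% line on all 12 arrays, and APOA4, APOF and MTTP lie near the bottom of the scale, at 5.327% or less.

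APOA1 and APOA2 are the main proteins of high-density lipoprotein, and APOE is the ligand through which remnant particles bind receptors of the LDL receptor family. Their log2 signals varied little between groups with quantile normalization. APOA1 read 14.55, 14.52 and 14.57 on uninduced control arrays, 14.50, 14.58 and 14.65 on induced control arrays, 14.53, 14.53 and 14.46 on uninduced shRNA-labelled arrays and 14.51, 14.47 and 14.44 on induced ones. Its groups overlapped in all 4 comparisons between groups. APOA2 group means ran from 14.57 to 14.71 and APOE group means from 14.33 to 14.45, and of their comparisons only APOA2 between the uninduced lines had no overlap (-0.08, adjusted p = 0.611).

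For doxycycline in the shRNA-labelled line, APOA1 differed by -0.03 (log2, 95% interval -0.21 to 0.14, adjusted p = 0.848). APOA2 differed by -0.07 (95% interval -0.27 to 0.14, adjusted p = 0.709) and APOE by 0.03 (95% interval -0.16 to 0.22, adjusted p = 0.872). These intervals hold for the bright end of the scale and bound the signal, not the RNA. Sizes and signs of such differences depended on the scaling. With median scaling APOA1 was 0.01 in this comparison, and in the control line, where the main values were 0.03, -0.07 and -0.03, doxycycline went with 0.34 for APOA1, 0.25 for APOA2 and 0.26 for APOE (adjusted p = 0.27, 0.426 and 0.448).

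APOA4, a lipid-binding protein of intestinal chylomicrons, differed between the lines and, within the shRNA-labelled line, with doxycycline. On replicates 1, 2 and 3 it read 9.87, 10.14 and 10.05 (log2) in uninduced and 10.13, 9.62 and 10.19 in induced control cells. The shRNA-labelled cells read 8.63, 8.66 and 8.97 uninduced and 8.15, 7.65 and 8.22 induced. All 6 control arrays stood above all 6 arrays of the shRNA-labelled line, the 2 control groups overlapped, and the shRNA-labelled groups did not.

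Without doxycycline APOA4 was 2.41-fold lower in the shRNA-labelled line (log2 -1.27, SE 0.18, adjusted p = 0.00107), and with it 3.93-fold lower (log2 -1.97, SE 0.18, adjusted p = 2.56e-05). Within the shRNA-labelled line APOA4 was 1.68-fold lower with doxycycline (log2 -0.75, SE 0.18, adjusted p = 0.0238), and within the control line the difference was -0.04 (adjusted p = 0.915). The difference of these responses, -0.71 (95% interval -1.28 to -0.13), did not pass (adjusted p = 0.213). The fall with doxycycline was no longer called without replicate 3 of the shRNA-labelled line without doxycycline (-0.64, adjusted p = 0.101) or replicate 2 with it (-0.57, adjusted p = 0.093). With no background correction it shrank to -0.41 (adjusted p = 0.0269), and the difference between the lines with doxycycline to -1.27.

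APOC3 inhibits lipoprotein lipase and the uptake of triglyceride-rich remnants. Its log2 signals were 13.80, 14.00 and 14.07 on uninduced and 14.02, 14.12 and 14.22 on induced control arrays. They were 13.70, 13.66 and 13.77 on uninduced and 12.84, 12.07 and 13.06 on induced arrays of the shRNA-labelled line. The 3 induced arrays of the shRNA-labelled line were the lowest of the 12, and replicate 2 was the lowest of them.

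Doxycycline went with 2.07-fold lower APOC3 in the shRNA-labelled line (log2 -1.05, SE 0.20, adjusted p = 0.0062) and differed by 0.16 in the control line (95% interval -0.28 to 0.60, adjusted p = 0.651). Without single arrays the fall in the shRNA-labelled line ranged from -1.25 to -0.76, smallest without its induced replicate 2. That fall stayed called in all 24 alternatives (adjusted p 0.000668 to 0.0415). The difference of the responses was -1.21 (95% interval -1.83 to -0.59) and missed the threshold (adjusted p = 0.072, range over the alternatives 0.0166 to 0.169). Between the lines APOC3 was 2.75-fold lower in the shRNA-labelled line with doxycycline (log2 -1.46, SE 0.20, adjusted p = 0.000381). Without it the difference was -0.25 (95% interval -0.69 to 0.19, adjusted p = 0.432), although the 2 uninduced groups did not overlap.

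APOA4, APOC3 and APOA1 are neighbours, since the RefSeq gene table of GRCh38.p14 lists no other protein-coding gene between APOA4 and APOC3 or between APOC3 and APOA1. Doxycycline in the shRNA-labelled line went with -0.75 for APOA4, -1.05 for APOC3 and -0.03 for APOA1. The APOA1 probe stayed above 65% of the array maximum, while APOC3 reached 61.8% and APOA4 5.327% at most. APOE and APOC1 are neighbours by the same rule, and neither passed for doxycycline in this line.

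APOC1, a small exchangeable protein that inhibits cholesteryl ester transfer protein, differed between the lines with doxycycline. Control arrays read 13.21, 13.57 and 13.41 (log2) uninduced and 13.60, 13.77 and 13.79 induced. Those of the shRNA-labelled line read 13.18, 13.32 and 13.28 uninduced and 13.32, 13.11 and 13.30 induced. The induced control arrays were higher than all 9 others.

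With doxycycline APOC1 was 1.39-fold lower in the shRNA-labelled line than in the control line (log2 -0.48, SE 0.11, adjusted p = 0.00984). In the control line doxycycline went with a difference of 0.33 (95% interval 0.08 to 0.57), which did not pass (adjusted p = 0.0724, range over the alternatives 0.021 to 0.255). The same comparison in the shRNA-labelled line gave -0.02 (95% interval -0.26 to 0.23, adjusted p = 0.954). The responses differed by -0.34 (95% interval -0.69 to 0.01, adjusted p = 0.326), without passing.

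APOF, a secreted protein also known as lipid transfer inhibitor protein, was the member whose responses to doxycycline went in opposite directions and differed by test. Signals (log2) in control cells were 8.10, 8.14 and 8.01 uninduced and 8.46, 8.41 and 8.54 induced. Signals in shRNA-labelled cells were 8.01, 7.95 and 8.12 uninduced and 7.28, 7.28 and 7.52 induced. The uninduced groups overlapped, the induced control arrays were the highest of the 12 and the induced shRNA-labelled arrays the lowest.

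Doxycycline went with a 1.59-fold lower APOF in the shRNA-labelled line (log2 -0.67, SE 0.10, adjusted p = 0.00134) and a 1.31-fold higher one in the control line (log2 0.39, SE 0.10, adjusted p = 0.0202). The responses differed by -1.05 (95% interval -1.36 to -0.75, adjusted p = 0.0106). With doxycycline APOF was 2.16-fold lower in the shRNA-labelled line (log2 -1.11, SE 0.10, adjusted p = 1.67e-05). The uninduced lines were -0.06 apart (95% interval -0.27 to 0.16, adjusted p = 0.75). The APOF probe was dim, at 350.6 to 701.25 intensity units, and with no background correction the fall became -0.29 (adjusted p = 0.0123), the difference of responses -0.49 (adjusted p = 0.0171) and the difference between the induced lines -0.52. The rise in the control line was no longer called with no background correction (0.21, adjusted p = 0.0529), median scaling (0.30, adjusted p = 0.348) or trended robust variance (0.39, adjusted p = 0.104). The same held without uninduced control replicate 1 (0.40, adjusted p = 0.0568) or 3 (0.35, adjusted p = 0.053) or induced control replicate 3 (0.35, adjusted p = 0.0777). Median scaling also ended the call of the difference of responses (-1.04, adjusted p = 0.0702).

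**Figure D2:**
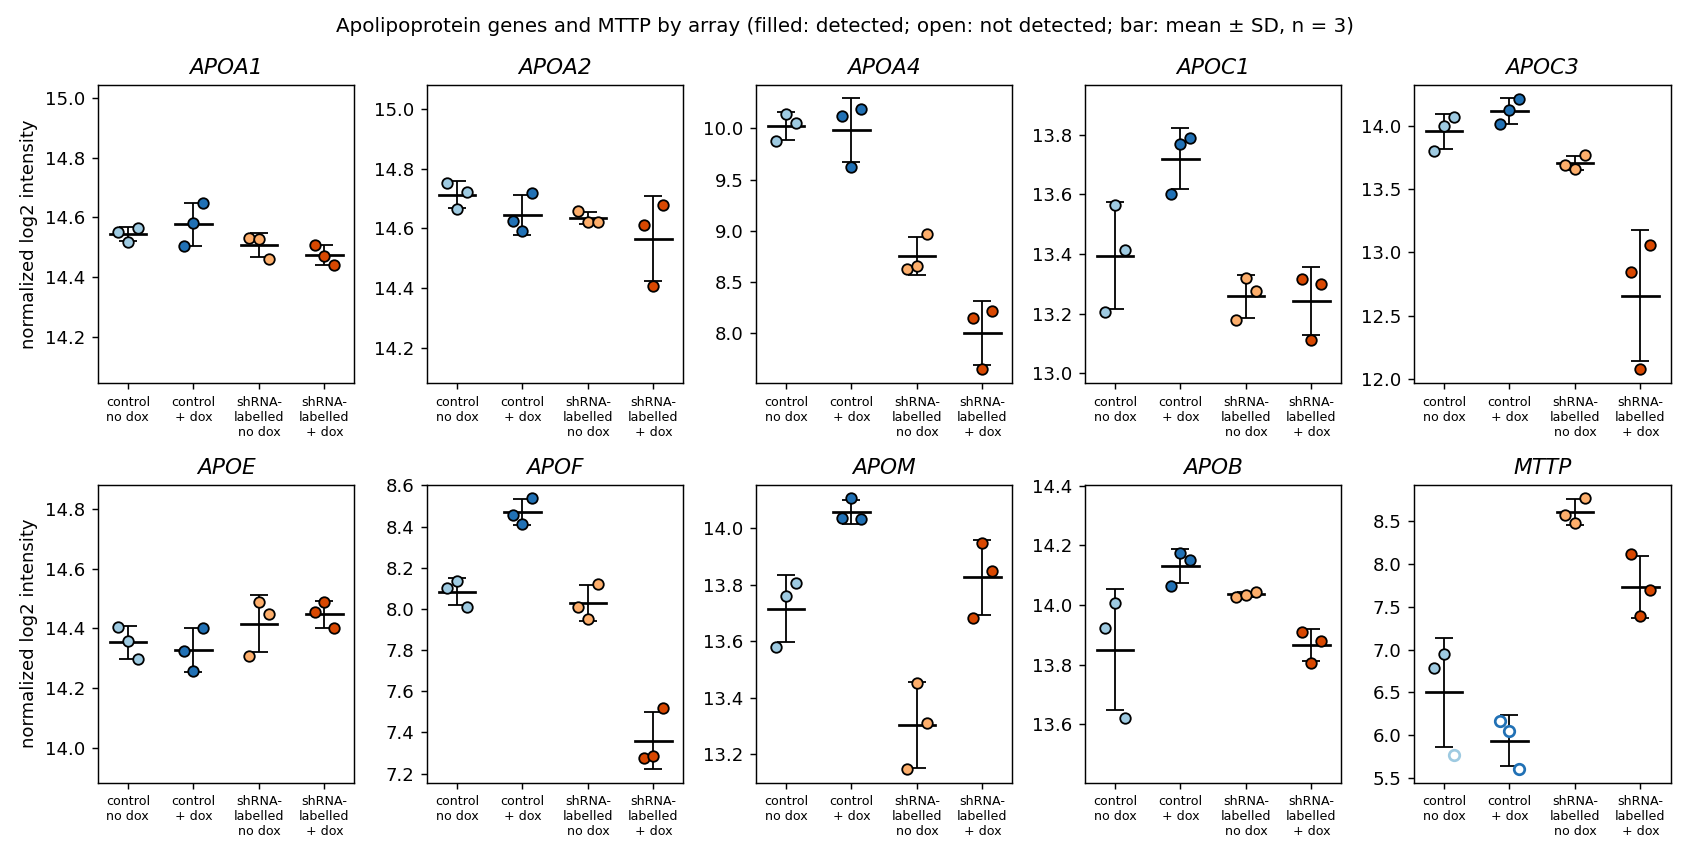
Normalized log2 intensity (y axis, scale differing by panel and never spanning less than 1 unit) of the 10 members in the 4 groups, with 1 point for each array, filled where detected and open where not, and bars for the mean ± SD of 3 arrays. APOA4 separates the lines, APOC3 and APOF are lowest in the induced shRNA-labelled line, and MTTP is open on all 3 induced control arrays.

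APOM, a lipocalin of high-density lipoprotein that carries sphingosine-1-phosphate, was the member that rose with doxycycline in the shRNA-labelled line. There the 3 uninduced arrays gave 13.15, 13.45 and 13.31 (log2) and the 3 induced arrays 13.68, 13.95 and 13.85. Control cells gave 13.58, 13.76 and 13.81 uninduced and 14.04, 14.11 and 14.03 induced. Induced arrays stood above uninduced ones within each line, without overlap.

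That rise was 1.44-fold (log2 0.52, SE 0.11, adjusted p = 0.0105), and the control line's difference of 0.34 (95% interval 0.10 to 0.58) fell just short (adjusted p = 0.0561, range over the alternatives 0.0123 to 0.198, with the replicate number as a block 0.0338). The responses differed by 0.18 (95% interval -0.16 to 0.52, adjusted p = 0.618). Without doxycycline APOM was 1.33-fold lower in the shRNA-labelled line (log2 -0.41, SE 0.11, adjusted p = 0.0262), and with it the difference of -0.23 did not pass (adjusted p = 0.158). With median scaling the rise was 0.48 (adjusted p = 0.122) and the difference between uninduced lines -0.29 (adjusted p = 0.355). The latter call was also lost in a fit of these groups alone (adjusted p = 0.0653) and without replicates 2 (adjusted p = 0.0764) or 3 (adjusted p = 0.0679) of the uninduced control line or replicates 1 (adjusted p = 0.0982) or 3 (adjusted p = 0.0693) of the uninduced shRNA-labelled line.

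The RefSeq promoter table of GRCh38.p14 holds start regions of 6 of the 10 members in 9 windows (APOA2, APOA4, APOC1, APOE, APOM and MTTP). Those of APOM, APOA4 and MTTP are shown, the members among these 6 that passed in 2 or more comparisons. APOM and APOA4 have 1 window each and MTTP has 2, since the probe does not tell its start sites apart. Windows run from 250 bases before to 50 bases after the start, on the gene's strand: APOM at chr6:31655644-31655943 (plus), APOA4 at chr11:116823255-116823554 (minus) and MTTP at chr4:99563880-99564179 and chr4:99574574-99574873 (plus). Capitals mark CAAGG, the core that the LRH-1-type sites CAAGGTCA and CAAGGCCA share, which was searched after the windows were seen.
APOM: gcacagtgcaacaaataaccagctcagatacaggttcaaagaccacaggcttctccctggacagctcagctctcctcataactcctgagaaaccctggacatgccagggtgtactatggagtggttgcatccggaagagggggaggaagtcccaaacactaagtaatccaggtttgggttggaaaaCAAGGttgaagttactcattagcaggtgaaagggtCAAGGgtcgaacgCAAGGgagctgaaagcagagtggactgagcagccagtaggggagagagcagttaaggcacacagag
APOA4: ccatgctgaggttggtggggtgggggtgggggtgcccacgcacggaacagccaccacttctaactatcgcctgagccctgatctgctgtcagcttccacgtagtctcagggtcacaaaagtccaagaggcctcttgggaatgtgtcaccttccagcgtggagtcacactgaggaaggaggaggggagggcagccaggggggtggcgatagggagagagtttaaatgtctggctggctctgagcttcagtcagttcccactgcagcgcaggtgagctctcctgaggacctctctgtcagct
MTTP, upstream start: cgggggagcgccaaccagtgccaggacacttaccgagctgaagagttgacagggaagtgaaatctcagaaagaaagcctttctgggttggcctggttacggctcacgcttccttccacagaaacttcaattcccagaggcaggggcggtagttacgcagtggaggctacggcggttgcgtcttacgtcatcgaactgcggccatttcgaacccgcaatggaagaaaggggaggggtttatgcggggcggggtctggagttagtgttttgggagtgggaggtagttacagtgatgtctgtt
MTTP, downstream start: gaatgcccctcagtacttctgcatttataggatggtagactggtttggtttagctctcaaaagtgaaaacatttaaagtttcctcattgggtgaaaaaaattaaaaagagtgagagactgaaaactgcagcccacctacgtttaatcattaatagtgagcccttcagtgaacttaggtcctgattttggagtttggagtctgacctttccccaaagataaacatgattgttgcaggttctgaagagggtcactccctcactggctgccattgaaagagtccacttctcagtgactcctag

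None of the 9 windows held CAAGGTCA, CAAGGCCA or the HNF4A-type letters CAAAGTCCA on either strand, and 2.90% of all 35116 windows held a LRH-1-type site and 0.384% the HNF4A-type one. The core CAAGG occurred 3 times in the APOM window, all on the gene's strand, with first bases at -64, -29 and -16 from the start. As many or more were found in 3.46% of all windows, and at least 1 in 47.8%. The APOA4 and MTTP windows had none. A match of letters is a description and does not show binding. With shares this low and only exact letters sought, the lack of full sites in 9 windows does not show that sites are absent.

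APOB is the structural protein of chylomicrons and very-low-density lipoprotein, and MTTP the microsomal transfer protein that lipidates it. MTTP passed in both comparisons between the lines, and APOB passed in no comparison. APOB read 13.92, 14.01 and 13.62 (log2) on uninduced and 14.07, 14.17 and 14.15 on induced control arrays. It read 14.03, 14.04 and 14.05 on uninduced and 13.91, 13.81 and 13.88 on induced shRNA-labelled arrays. Induced arrays were higher than uninduced ones in the control line and lower in the shRNA-labelled line, without overlap in either.

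These APOB differences did not pass: 0.28 in the control line (95% interval 0.05 to 0.51, adjusted p = 0.095, range over the alternatives 0.0267 to 0.254) and -0.17 in the shRNA-labelled line (95% interval -0.40 to 0.06, adjusted p = 0.349). Their difference was -0.45 (95% interval -0.78 to -0.13, adjusted p = 0.168). With doxycycline the lines differed by -0.26 (95% interval -0.49 to -0.03, adjusted p = 0.0936, range over the alternatives 0.0276 to 0.287) and without it by 0.19 (95% interval -0.04 to 0.42, adjusted p = 0.253). The APOB probe lay between 36.62% and 63.07% of the array maximum.

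The MTTP probe was dim, and it read higher in the shRNA-labelled line than in the control line, where it was near or below detection. Signals of the shRNA-labelled line were 8.57, 8.48 and 8.77 (log2) uninduced and 8.11, 7.39 and 7.70 induced, and all 6 arrays detected the probe. Those of the control line were 6.78, 6.95 and 5.77 uninduced, detected on replicates 1 and 2, and 6.16, 6.05 and 5.60 induced, detected on none. No array of one line reached the range of the other.

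Without doxycycline MTTP was 4.31-fold higher in the shRNA-labelled line (log2 2.11, SE 0.28, adjusted p = 0.000588), in a comparison where 2 of the 3 control arrays detected it, and without the undetected replicate 3 the log2 difference was 1.74 (adjusted p = 0.000731). With doxycycline the log2 difference fitted by limma, which used the undetected control values, was 1.80 (adjusted p = 0.000909). The control arrays give only a bound, at least 2.43-fold higher, set by the lowest detected signal on each array and not itself tested. That bound holds for the background correction used here. Other treatments of the background gave smaller differences: with no correction the log2 differences were 0.88 without and 0.61 with doxycycline, and with normexp fitted without negative controls the latter was 1.12. Doxycycline went with -0.87 in the shRNA-labelled line, its arrays not overlapping, but the difference did not pass (95% interval -1.49 to -0.25, adjusted p = 0.0704, range over the alternatives 0.0106 to 0.234). Within the control line MTTP differed by -0.57 with doxycycline (95% interval -1.19 to 0.05, adjusted p = 0.207), and the groups overlapped. Neither uninduced replicate 3 nor any induced array detected the probe, so the size of this difference is not known. Without uninduced control replicate 3 that comparison was called (adjusted p = 0.0155).

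**Figure D3:**
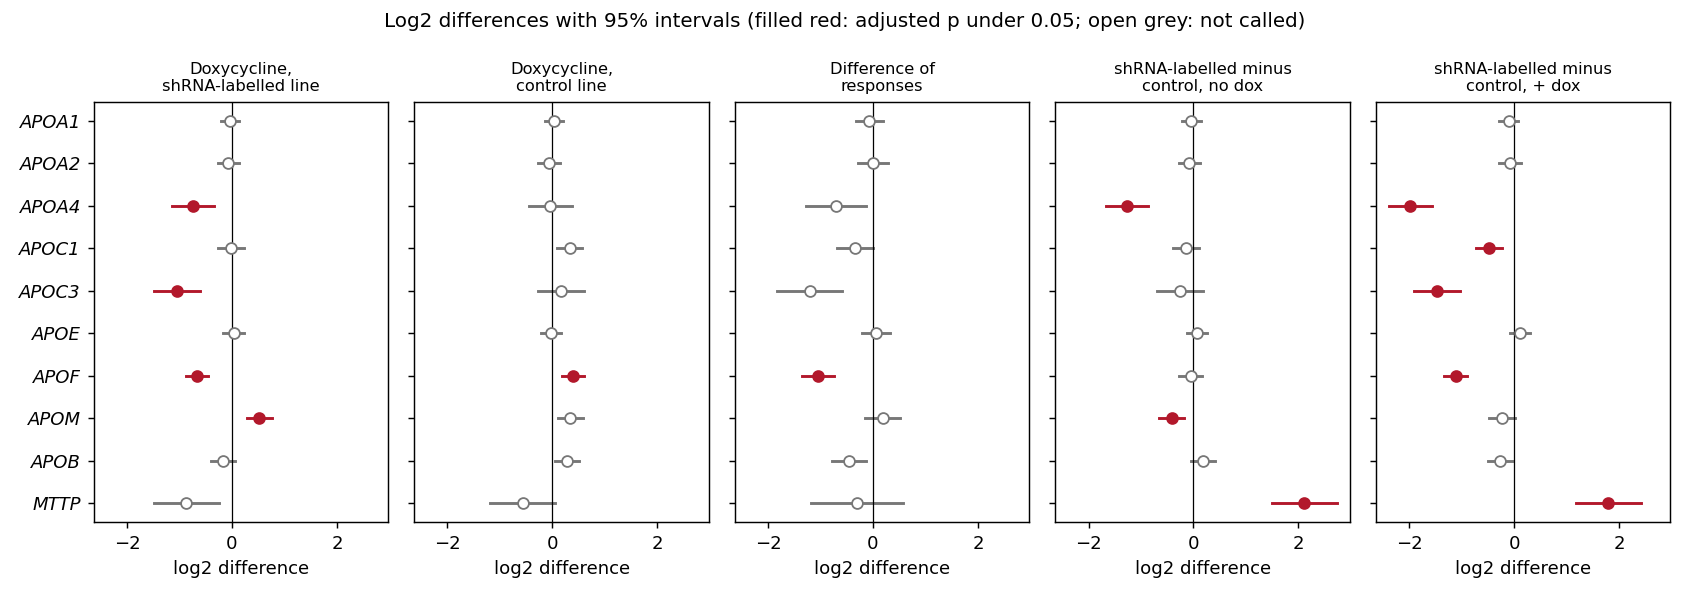
Log2 differences (x axis) of the 10 members in the 5 comparisons, with 95% intervals of the fit over 12 arrays, filled red where the adjusted p was under 0.05. APOC3, APOA4 and APOF lie left of 0 and APOM right of it for doxycycline in the shRNA-labelled line, MTTP lies right of 0 in both line comparisons, and APOA1, APOA2 and APOE lie within 0.12 of 0.

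The order of group means differed by member. APOA4 ran from the control groups (10.02 uninduced and 9.98 induced, overlapping) through the uninduced (8.75) to the induced shRNA-labelled line (8.01). APOF ran from the induced control line (8.47) through both uninduced groups (8.08 and 8.03, overlapping) to the induced shRNA-labelled line (7.36). APOC3 ran from the induced (14.12) and uninduced (13.96) control line, which overlapped, through the uninduced (13.71) to the induced shRNA-labelled line (12.66). APOM was highest in the induced control line (14.06), followed by the overlapping induced shRNA-labelled (13.83) and uninduced control (13.72) groups and the uninduced shRNA-labelled line (13.30). MTTP had the reverse placing of lines, with 8.61 and 7.74 in the shRNA-labelled line against 6.50 and 5.94 in the control line. Under no background correction, normexp without controls and the authors' deposited values, all 10 members kept the order of their 4 group means, and 7 did with median scaling, the exceptions being APOA1, APOA2 and APOE.

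The summed signal of the 9 detected hepatocyte markers was also lowest in the induced shRNA-labelled line, at 90340 to 111100 linear units per array. It was 132800 to 138400 in the uninduced and 122100 to 132000 in the induced control line and 124800 to 132300 in the uninduced shRNA-labelled line. The 10 epithelial markers summed to 127700 to 140700 over all 12 arrays. Bright probes such as EPCAM, KRT19 and CDH17 (group means of 14.49 to 14.75, log2) dominate that sum, and dimmer ones moved more. KRT20 means went with doxycycline from 6.70 to 8.45 in the control line and from 7.10 to 9.51 in the shRNA-labelled line. KRT18 and LGALS4 means were also higher with doxycycline in both lines. Bright probes dominate the hepatocyte sum as well, and the 9 markers did not move together. ALB, TTR, TF, HP, FGB and FGA had their lowest group mean in the induced shRNA-labelled line. AHSG had its highest there (14.31, log2), and SERPINA1 (14.67) and CPS1 (9.24) exceeded both control groups there. The part of the hepatocyte markers in the lower APOC3, APOA4 and APOF was not tested. The 5 detected fibroblast markers summed to 6202 to 7366 in the induced and 4054 to 4445 in the uninduced control line. In the shRNA-labelled line they summed to 5114 to 5472 induced and 3627 to 3931 uninduced. COL1A2 and COL3A1 were not detected on 3 arrays. The brighter PDGFRB and LUM dominate this sum, and their means and that of VIM were higher with doxycycline in both lines. COL1A1 means went up in the control line (8.14 to 8.72) and down in the shRNA-labelled line (9.09 to 8.51), and DCN changed little.

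For each member the 2 genes with the most similar group means were found, each gene centred on its own mean and likeness given as the root mean square difference over the 4 groups in log2 units. APOC3 was most like DIO1 (0.04) and APOH (0.07), APOF most like CYP4F2 (0.05) and S100A1 (0.08), and APOA4 most like PGC (0.10) and MMP11 (0.12). APOM was most like LINC01252 (0.01) and SYTL2 (0.03), MTTP most like VANGL2 (0.17) and CADPS2 (0.18), and APOC1 most like ETFDH (0.01) and NIT1 (0.02). APOB was most like MRPL52 (0.01) and RP9P (0.02). For APOA1 (ADD3 and AP2S1), APOA2 (EDC3 and NDUFS3) and APOE (KBTBD11 and RPL13AP3) likeness was 0.01 or closer, over group means that spanned 0.15 at most.

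A wider list of 104 genes of lipoprotein handling was read beside the members. Of these, 66 were tested, 23 had probes not detected on 3 arrays (among them APOA5, APOC2, APOC4, FABP1, FABP2, CD36, ABCG5, ABCG8 and APOBEC1), and 15, HNF4A among them, had no probe with a single symbol in the annotation and were not analysed here. For doxycycline in the shRNA-labelled line 12 of 66 passed (18.2%, against 11.5% of all genes), 7 higher and 5 lower, with a median of -0.02, as over all genes. The control line had 9 past the threshold (13.6%, against 16%), 6 higher and 3 lower. Between the lines 18 passed without doxycycline (27.3%, against 16.3%), 4 higher and 14 lower in the shRNA-labelled line, and 20 with it (30.3%, against 22.6%), 4 higher and 16 lower. With median scaling the doxycycline counts were 2 higher and 4 lower in the shRNA-labelled line and 2 higher and 1 lower in the control line.

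Of 6 other apolipoproteins tested, 2 passed for doxycycline in the shRNA-labelled line (33.3%, against 11.5% of all genes called in either direction). They were APOH and APOD, both lower. APOH, a phospholipid-binding plasma protein, went from 13.78 ± 0.07 to 12.70 ± 0.05 there (mean ± SD, n = 3), next to 13.89 ± 0.17 and 14.01 ± 0.15 in uninduced and induced control arrays. Its fall was 2.11-fold (log2 -1.07, adjusted p = 0.000187), and its responses differed by -1.20 (95% interval -1.54 to -0.85, adjusted p = 0.0106). APOD, a lipocalin, was -0.48 with doxycycline there (adjusted p = 0.0218) and was lower there than in the control line without (-0.93, adjusted p = 0.000412) and with doxycycline (-1.08, adjusted p = 7.28e-05).

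Of 17 genes of particle assembly and export in the endoplasmic reticulum, 0 passed for doxycycline in the shRNA-labelled line by limma (2 at an unadjusted p under 0.05), against 11.5% of all genes, and 1 in the control line (5.88%, against 16%), CIDEB (0.64, adjusted p = 0.00951), which helps lipidate very-low-density lipoprotein. With doxycycline 4 of the 17 differed between the lines (23.5%, near the 22.6% of all genes called in either direction). All 4 were lower in the shRNA-labelled line, where 11.8% of all genes were lower. They were CIDEB (-1.01), the cargo receptor MIA2 (-1.13), the chaperone HSPA5 (-0.47) and TM6SF2 (-0.81). The median of the 17 was -0.27, against 0.00 over all genes.

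Of 13 lipid supply genes, 5 changed with doxycycline in the shRNA-labelled line (38.5%, against 11.5% of all genes). MOGAT3, which esterifies monoacylglycerol, rose by 0.87 (adjusted p = 0.00106), the acyl-CoA synthetase ACSL5 by 0.56 (adjusted p = 0.00827) and the phosphatidate phosphatase LPIN2 by 0.60 (adjusted p = 0.0147), while GPAM, which starts glycerolipid synthesis, was lower (-0.75, adjusted p = 0.0105). Among control arrays MOGAT3 (0.50) and LPIN1 (0.34) rose and GPAM (-0.67) fell. Without doxycycline 6 of the 13 differed between lines (46.2%, against 16.3% of all genes), led by lower MOGAT3 (-0.94), higher LPIN1 (0.54), lower ACSL5 (-0.56) and lower LPIN2 (-0.52) in the shRNA-labelled line. With doxycycline DGAT1 (-0.73), MOGAT3 (-0.56) and ACSL1 (-0.75) were lower and AGPAT2 (0.47) higher.

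Of 7 receptor and uptake genes, VLDLR, the very-low-density lipoprotein receptor, fell with doxycycline in both lines (-0.80 in the shRNA-labelled one, adjusted p = 0.0156, and -1.18 in the control line, adjusted p = 0.00156). No other of the 7 passed in either line (14.3% called in each, near the 11.5% and 16% of all genes). Without doxycycline 6 of the 7 differed between lines (85.7%, against 16.3% of all genes), with LRP8 (0.92) and SORL1 (0.92) higher and VLDLR (-0.88) and SCARB1 (-0.63), the receptor for high-density lipoprotein, lower in the shRNA-labelled line. With doxycycline 3 of the 7 differed (42.9%, against 22.6% of all genes), SORL1 (0.85) and LRP8 (0.50) being higher and SCARB1 (-0.53) lower. Of 6 efflux and remodelling genes, none passed for doxycycline by limma in either line (1 at an unadjusted p under 0.05 in each). Over all genes 11.5% passed in the shRNA-labelled and 16% in the control line, so 0 of 6 says little. The endothelial lipase gene LIPG was higher in the shRNA-labelled line without (0.88) and with doxycycline (0.65), with ABCG1 lower with it (-1.05).

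Of 15 transcription regulators, 4 rose with doxycycline in the shRNA-labelled line (26.7%, against 11.5% of all genes called in either direction): NR5A2 (0.50), HNF4G (0.58), the liver X receptor NR1H3 (0.53) and CREB3L3, known in mouse as an activator of apolipoprotein genes, which was at least 1.43-fold higher and undetected without doxycycline. Among control arrays NR5A2 (0.89), CREB3L3 (0.85) and NR1H3 (0.49) rose and SREBF1 (-0.63) fell. PROX1 was lower in the shRNA-labelled line without (-1.72, adjusted p = 0.000547) and with doxycycline (-1.49, adjusted p = 0.000765). FOXA2 (-0.37) and CREB3L3 (at least 1.26-fold) were also lower there without doxycycline, and CREB3L3 (-0.66), NR5A2 (-0.38) and CEBPA (-0.47) with it. Of the APOB mRNA editing genes, A1CF, the cofactor of the editing enzyme, was lower in the shRNA-labelled line with doxycycline (-0.81, adjusted p = 0.0143).

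**Figure D4:**
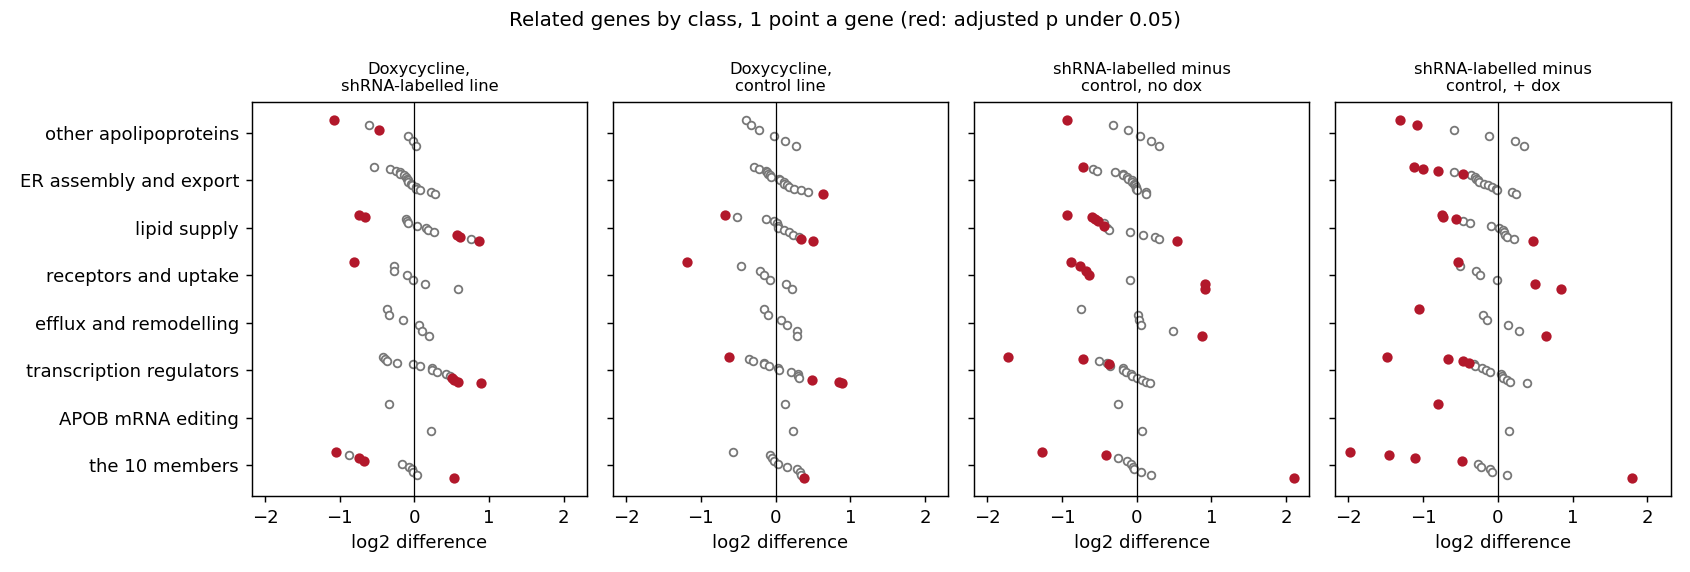
Log2 differences (x axis) of the 66 related genes tested, by class, and of the 10 members, for doxycycline in each line and for the shRNA-labelled minus the control line, with 1 point a gene and red where the adjusted p was under 0.05. With doxycycline, 16 of the 20 related genes called between the lines lie left of 0.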

How the data were processed

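Biotin-labelled cRNA made from total RNA was, per the labels' protocols, measured on Illumina bead arrays. The main deposited table gives mean bead intensity for every probe (linear, not normalized) and a detection p-value, per the file headers. A deposited table of log2-type values, made by the authors in a way not given in the sources used here, served as an alternative. GenomeStudio and lumi are named without roles in the submitters' processing notes. All descriptions carry 1 chip number.

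Intensities were corrected with limma 3.58.1 (R 4.3.3, normexp, offset 16, negative controls inferred from detection p-values), logged (log2) and quantile-normalized. The brightest probe with 1 symbol in the platform annotation, detected on 3 or more of 12 arrays, stood for its gene. limma fitted 4 group means, with Benjamini-Hochberg adjustment over 12566 genes at 0.05, and was tested on simulated data. Members and lists were chosen with earlier results of these data known. Related genes named were up to 4 called per class and comparison with the smallest adjusted p. The share of bright genes and the CAAGG core were added after seeing the data. Same-numbered replicates deviated together weakly at most (correlations -0.19 to 0.232, 6 of 18 over 0.1), and they were not paired. Within the control line all same-numbered correlations were positive (0.069 to 0.232), and differently numbered arrays were not compared, so pairing is not excluded. Alternatives changed the background correction, scaling, detection filter, variance model or source of the values, fitted the compared groups alone, added a replicate block or array weights, or left out each array.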

Additional observations from a re-analysis of the deposited data

Results flagged for a closer look

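APOF was noted because its doxycycline responses differed between the lines by the test of the difference itself, with -1.05 on the log2 scale (shRNA-labelled minus control response, adjusted p = 0.0106). All 3 induced arrays were below all 3 uninduced arrays in the shRNA-labelled line and above them in the control line. APOH was noted for the same reason, with a difference of responses of -1.20 (adjusted p = 0.0106), made of a fall of -1.07 in the shRNA-labelled line and 0.12 (adjusted p = 0.518) in the control line. Groups of 3 arrays are too small for a test of single outlying arrays.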

How the results depend on the processing

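The 10 members' differences were recomputed 1185 times, of which 1119 kept direction and side of the threshold, 16 lost a call, 31 gained one and 19 changed sign, none of them called. Counted among the 1119 are the 23 alternatives of the APOA2 difference of responses, which ran from -0.2883 to 0.08. Its main value rounded to 0, so it had no direction to keep or change. Members called for doxycycline in the control line went from 1 to 3 (no background correction, array weights, trended robust variance), 2 (normexp without controls, detection on all 12 arrays, replicate block) or 0 (median scaling), and ranged from 0 to 2 without single arrays (0 without control replicate 1 without or 3 with doxycycline, 2 without control replicate 2 without it). For the difference of responses the 1 became 2 (no background correction, normexp without controls, detection on all 12 arrays, array weights, trended robust variance), the gain being APOC3, and was 1 to 2 without single arrays (2 without shRNA-labelled replicate 3 with doxycycline). Median scaling kept 1 call there but exchanged APOF for APOC3. Related genes called for doxycycline in the control line went from 9 to 14 (no background correction, array weights), 15 (trended robust variance) or 3 (median scaling), and 5 to 11 without single arrays (5 without control replicate 1 without doxycycline). In the shRNA-labelled line 12 became 6 (median scaling) or 20 (array weights), and 6 to 14 without single arrays (6 without its replicate 2 with doxycycline). For the lines without doxycycline 18 became 9 (median scaling), and 11 to 20 without single arrays (11 without control replicates 1 or 2 or shRNA-labelled replicate 3). For the difference of responses 1 became 4 (no background correction, trended robust variance) or 3 (array weights), and 1 to 2 without single arrays (2 without control replicate 3 without doxycycline). Member counts of the other comparisons stayed within 1.5 times, at 3 to 5 (4 called), 2 to 3 (3 called) and 4 to 6 (5 called). The cause of these shifts was not tested. The replicate block, with numbers not known to pair the arrays, gave 4, 2, 1, 3 and 5 members for the 5 comparisons in the order doxycycline in the shRNA-labelled and control lines, difference of responses, and lines without and with doxycycline. Signs changed with median scaling for APOA1 (0.0088 for doxycycline in the shRNA-labelled line, 0.19 for the uninduced lines), APOA2 (0.25 in the control line, 0.16 for the uninduced lines) and APOE (0.26 in the control line, -0.19 for the difference of responses), and with array weights for APOA1 (0.0029) and APOC1 (0.0134) in the shRNA-labelled line. Without single arrays, doxycycline in the shRNA-labelled line gave -0.0221 to 0.0689 for APOE, -0.126 to 0.0114 for APOA2 and -0.055 to 0.0498 for APOC1, and in the control line -0.0633 to 0.0104 for APOE, -0.1477 to 0.1378 for APOA4 and -0.0024 to 0.0697 for APOA1. For the induced lines APOA2 gave -0.1369 to 4e-04, and for the difference of responses MTTP gave -0.5329 to 0.0588. Over all genes, calls over the alternatives ranged from 781 to 2698 (doxycycline in the shRNA-labelled line, 1445 called), 1027 to 2747 (control line, 2009 called), 15 to 527 (difference of responses, 106 called), 984 to 3370 (uninduced lines, 2052 called) and 1670 to 3627 (induced lines, 2846 called). The fit of compared groups alone was not run for the difference of responses, which uses all groups, and MTTP has no value under detection on all 12 arrays. Signal near background limits MTTP, APOF and, in the shRNA-labelled line, APOA4. Signal near the top of the scale limits APOA1, APOA2 and APOE. APOB, APOC3 and APOM reached 50% of the array maximum on 8, 6 and 4 arrays, so brightness may limit them too.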
